A study of Mus musculus with 4 samples.

Results

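The dystrophin and sarcoglycan complex was followed through 9 genes: Dmd, Utrn, Dag1, Sgca, Sgcb, Sgcd, Sspn, Dtna and Sntb1. They were taken by gene symbol from a table of 23847 rows, and each matched 1 row. Ventricles were taken from male mice on a C57BL/6 background on postnatal day 21 and gave 4 libraries of polyadenylated RNA, and 2 of them came from hearts with a cardiac excess of Cdk8 (Cdk8Tg) while the other 2 were wild type (WT). Cdk8 is the kinase of the Mediator complex. Not given in the sources used here are the promoter that drives the transgene, the number of lines and whether each library is a separate animal, and a p-value here therefore reflects the scatter among these libraries alone, which may be technical. The levels are FPKM, that is, fragments per kilobase of transcript relative to the library total, as the authors deposited them. Because FPKM are scaled to length, levels can be set side by side between genes, but only roughly. Many of these genes have several transcripts of unlike length, and the lengths used for the scaling are not given.

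The complex runs from the actin cytoskeleton to the basement membrane of muscle. Dystrophin binds actin and beta-dystroglycan, alpha-dystroglycan binds laminin outside the cell, and the sarcoglycans with sarcospan form a transmembrane unit beside dystroglycan. Dystrobrevin and the syntrophins sit on the inner face and carry signalling proteins, and utrophin is the autosomal relative of dystrophin. Loss of dystrophin or of a sarcoglycan causes muscular dystrophy and often heart muscle disease.

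Cdk8 stood at 7309 and 8122 FPKM in Cdk8Tg hearts, against 7.89 and 9.86 FPKM in WT hearts. Spacing of the lowest FPKM values placed the depth near 12.2 and 11.7 M fragments in Cdk8Tg and near 13.8 and 13.8 M in WT, provided that each library was scaled by its own fragment total. At those depths even Sntb1, the lowest of the 9 genes, rested on about 142 and 135 fragments per kilobase of transcript in Cdk8Tg and on about 80 and 66 in WT. Markers of other cells moved with the groups in part. Of 6 fibroblast markers, 5 rose, a count of 3 after median-of-ratios scaling, 4 with quantile normalization and 6 with an equal FPKM sum. Their summed level was 759 and 964 FPKM in Cdk8Tg and 602 and 589 FPKM in WT. Most of that sum was Dcn, at 456 and 574 FPKM in Cdk8Tg and 400 and 404 FPKM in WT. Dcn was not called on the deposited scale. Of 7 ventricular cardiomyocyte markers 4 fell, a count of 5 after median-of-ratios scaling, 1 with quantile normalization and 2 with an equal FPKM sum. Their log2 changes ran from -0.81 to 0.24, with sums of 24849 and 23578 FPKM in Cdk8Tg and of 34897 and 33794 FPKM in WT. Of all tested rows 16.9% rose and 7.98% fell on the deposited scale. None of the 6 endothelial markers was called by limma on the deposited scale, with sums of 210 and 196 FPKM in Cdk8Tg and of 219 and 219 FPKM in WT. Skeletal muscle markers stayed low, summing over 7 genes to 2.03 and 3.09 FPKM in Cdk8Tg and to 2.14 and 1.85 FPKM in WT. Atrial markers differed within each group, with sums over 4 genes of 81.2 and 344 FPKM in Cdk8Tg and of 275 and 25.4 FPKM in WT, and Bmp10 among them was listed at 0 in all libraries. In whole ventricle, fewer cells of a type and less RNA per cell cannot be told apart.

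Of the 9 genes 2 rose and 3 fell in the Cdk8Tg ventricles. Sntb1 and Utrn were higher, while Sgca, Sgcb and Dtna were lower, and Dmd, Dag1, Sgcd and Sspn did not pass the test. A gene was called at a Benjamini-Hochberg adjusted p under 0.05 from limma on log2(FPKM + 1), adjusted over 11888 tested rows. That scale understates change at low FPKM, the more so the lower the level. Of all tested rows 16.9% were called higher and 7.98% lower, so that 2 rises among 9 genes lie near the background share and the 3 falls lie above it. The 9 genes were chosen with earlier results of these data known, and that difference in share was not tested. Each of the 9 genes separated the groups without overlap, 4 with the Cdk8Tg libraries higher and 5 with them lower, whereas 49.2% of all tested rows separated upwards and 21.1% downwards. The median log2 change of the 9 genes was -0.16, against 0.13 over all tested rows. The direction of small changes depends on how the libraries are scaled, since that shift of 0.13 disappears with median-of-ratios scaling (median 0.00) and grows to 0.30 when every library is given the same FPKM sum. With median-of-ratios scaling 1 of the 9 genes was called higher and 4 lower, where 7.96% of all tested rows were higher and 11.7% lower. Quantile normalization gave 1 higher and 3 lower against 8.34% and 8.74% of all tested rows, and the equal FPKM sum gave 4 higher and 2 lower against 41.2% and 5.49%.

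**Figure D1:**
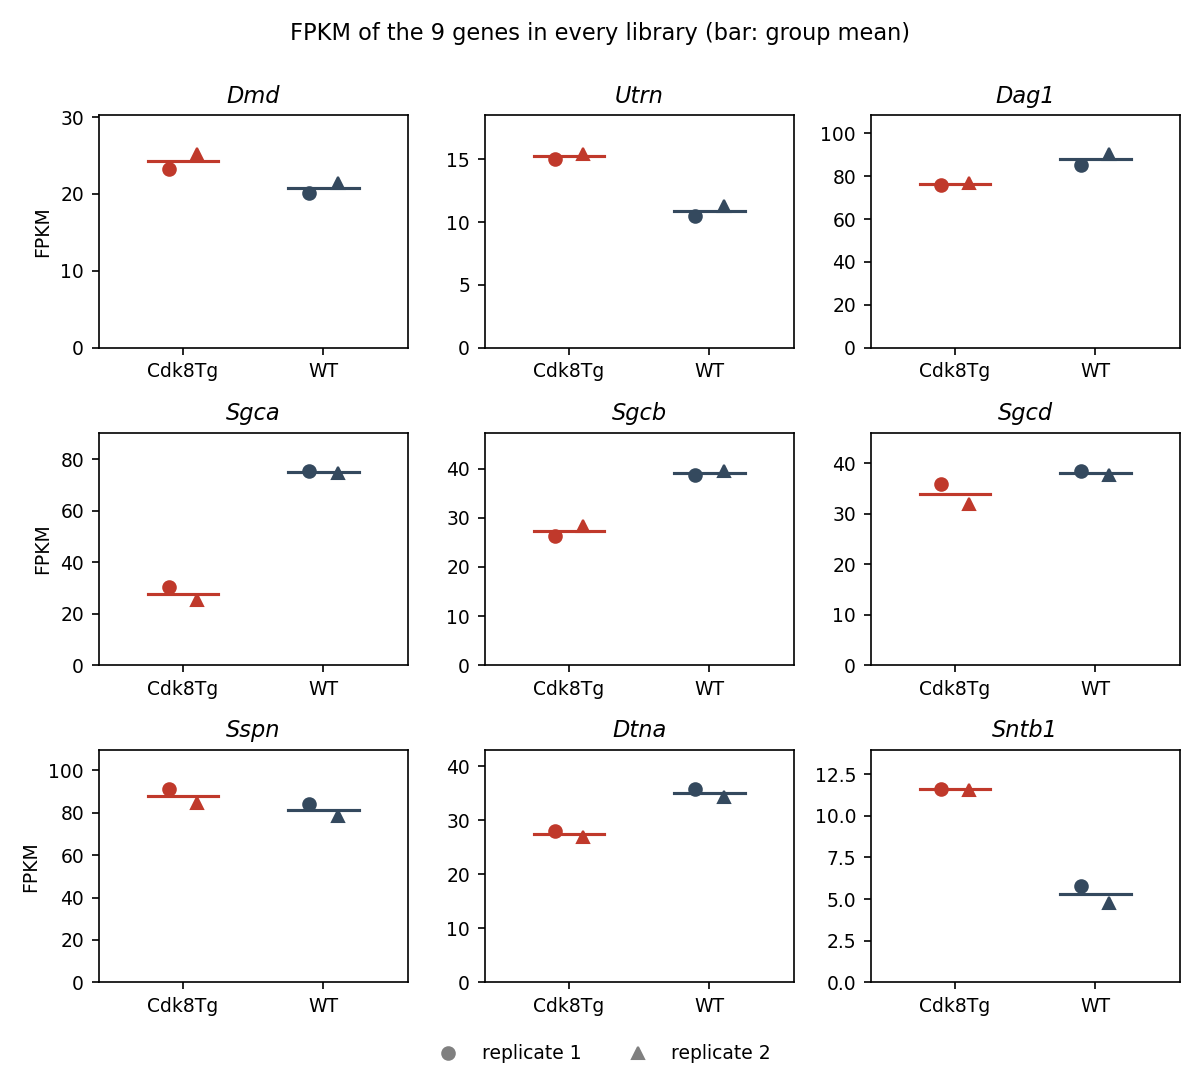
FPKM of each of the 9 genes (vertical axes from 0) in the Cdk8Tg libraries (red, left) and the WT libraries (dark, right), with circles for replicate 1, triangles for replicate 2 and bars for group means. Sgca lies at 25.4 and 30.3 FPKM in Cdk8Tg against about 75 FPKM in WT, and Sntb1 at 11.6 FPKM in both Cdk8Tg libraries against 4.80 and 5.81 FPKM in WT.

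The sarcoglycans carried the largest fall. Sgca encodes alpha-sarcoglycan, the single-pass subunit found mainly in striated muscle. Its level was 30.3 and 25.4 FPKM in the Cdk8Tg libraries, against 75.4 and 74.8 FPKM in the WT libraries. The WT pair was nearly identical, and both Cdk8Tg libraries lay far below it. The mean of 27.8 ± 3.48 FPKM in Cdk8Tg was 37.1% of the WT mean of 75.1 ± 0.403 FPKM (SD, n = 2 per group). The limma estimate was a log2 change of -1.41 with an SE of 0.11 and a Benjamini-Hochberg adjusted p of 0.00354, and it stayed called under all 3 other scalings, between -1.21 and -1.55. Of the ventricular cardiomyocyte markers 4 of 7 fell as well, and their part in the fall of Sgca was not tested. On GRCm38, Sgca (ENSMUSG00000001508.15) lies on the minus strand of chromosome 11 at 94962791 to 94976327.

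Sgcb encodes beta-sarcoglycan, which together with delta-sarcoglycan forms the core around which the sarcoglycan unit assembles. It stood at 26.4 and 28.4 FPKM in Cdk8Tg, against 38.8 and 39.5 FPKM in WT. Both Cdk8Tg libraries were lower, with a log2 change of -0.50, an SE of 0.08 and a Benjamini-Hochberg adjusted p of 0.0151 in limma. That call also stood under the 3 other scalings, from -0.31 to -0.65, but it was lost when WT replicate 1 was left out (adjusted p = 0.0775) or WT replicate 2 (adjusted p = 0.0976). The median log2 change of the 7 ventricular cardiomyocyte markers was -0.57 on the deposited scale, and their part in the fall of Sgcb was not tested. Sgcb (ENSMUSG00000029156.11) lies on the minus strand of chromosome 5 at 73632749 to 73647790.

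Sgcd, the delta subunit, whose loss causes cardiomyopathy in hamsters and mice, did not pass the test. Its levels were 35.9 and 32.0 FPKM in Cdk8Tg, against 38.4 and 37.7 FPKM in WT, a log2 change of -0.16 with a 95% interval from -0.39 to 0.06 (limma, Benjamini-Hochberg adjusted p = 0.224). The value was 0.03 on the equal-sum scale. Sgce, the widely expressed relative of Sgca, was at 12.5 and 17.0 FPKM in Cdk8Tg, against 10.5 and 12.2 FPKM in WT and was not called.

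Sspn, which encodes the tetraspan protein sarcospan, was among the most abundant of the 9 transcripts and did not pass the test. It stood at 91.3 and 84.5 FPKM in Cdk8Tg, against 84.2 and 78.2 FPKM in WT. The groups were separated by a gap smaller than that within either group. The log2 change was 0.11 with a 95% interval from -0.11 to 0.33, and it was -0.03 after median-of-ratios scaling. Exons of Sspn overlap those of Sspnos on the opposite strand, and as the strand setting of the counting was not stated, their reads cannot be told apart.

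The region before the start of the 3 member sarcoglycan genes is shown beside that of Dmd, because the first of them fell most and Dmd did not pass the test. Each line gives 250 bases upstream of a start in the RefSeq table for GRCm38.p6 (for Dmd the more upstream of its starts), 5′ to 3′ on the strand of the gene, with capitals for any match to 5 motifs of muscle promoters: the E-boxes CAGCTG and CACCTG, the MCAT element CATTCC, the CArG box and the MEF2 site, searched on both strands. The CArG box and the MEF2 site were added to the search after the Dmd sequence had been seen.
Sgca, chr11:94976328-94976577, minus strand: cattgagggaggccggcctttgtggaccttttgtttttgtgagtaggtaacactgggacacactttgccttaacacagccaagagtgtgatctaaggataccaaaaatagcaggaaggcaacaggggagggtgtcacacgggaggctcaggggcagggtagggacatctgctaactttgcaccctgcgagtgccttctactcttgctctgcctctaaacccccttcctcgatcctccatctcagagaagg
Sgcb, chr5:73647738-73647987, minus strand: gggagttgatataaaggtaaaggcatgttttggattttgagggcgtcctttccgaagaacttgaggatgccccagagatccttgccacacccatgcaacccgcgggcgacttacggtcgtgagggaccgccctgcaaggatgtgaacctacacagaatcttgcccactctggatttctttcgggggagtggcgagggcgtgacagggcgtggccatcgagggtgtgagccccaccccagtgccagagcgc
Sgcd, chr11:47379326-47379575, minus strand: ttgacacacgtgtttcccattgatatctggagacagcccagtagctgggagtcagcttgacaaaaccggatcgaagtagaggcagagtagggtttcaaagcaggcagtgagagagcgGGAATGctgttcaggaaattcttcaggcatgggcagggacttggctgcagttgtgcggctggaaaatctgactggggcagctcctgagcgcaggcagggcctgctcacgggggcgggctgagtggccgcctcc
Dmd, chrX:82948620-82948869, plus strand: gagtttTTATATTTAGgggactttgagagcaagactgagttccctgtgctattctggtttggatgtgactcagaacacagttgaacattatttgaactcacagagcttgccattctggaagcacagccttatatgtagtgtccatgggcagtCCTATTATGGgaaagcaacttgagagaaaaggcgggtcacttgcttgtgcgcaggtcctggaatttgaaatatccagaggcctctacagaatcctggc
In the GENCODE annotation Sgcd spans 46896253 to 47988969 on chromosome 11, so that its window lies inside the annotated gene, and the window of Sgcb overlaps the annotated 5′ end of that gene. The windows of Sgca and Sgcb held none of the 5 motifs in these letters, which says nothing of the factors. That of Sgcd held an MCAT element 133 bases before its start, and that of Dmd held a MEF2 site at 244 and a CArG box at 98 bases before it. Among the windows not shown, those of Dag1 and Utrn and that of the other Dmd start held none of the 5 motifs. Each Sspn window held an MCAT element. Windows with and without a motif were thus found among the genes that did not pass the test. Among 32851 windows of the table, 13.0% held CAGCTG, 17.2% CACCTG, 12.6% MCAT, 1.47% a CArG box and 2.92% a MEF2 site. The table matched 7 of the 9 genes, and Dtna and Sntb1 have no entry in it.

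The membrane scaffolds Dmd and Utrn were both higher in the Cdk8Tg libraries, and only Utrn was called. Their changes were not compared by a test. Dmd encodes dystrophin and stood at 23.3 and 25.2 FPKM in Cdk8Tg, against 20.1 and 21.4 FPKM in WT. Both Cdk8Tg libraries were slightly higher, and the log2 change of 0.21 had a 95% interval from -0.01 to 0.43 (limma, Benjamini-Hochberg adjusted p = 0.129). Dmd was called higher only on the equal-sum scale among all alternatives tried (log2 change 0.40, adjusted p = 0.021 by limma with Benjamini-Hochberg). The gene spans chromosome X from 82948870 to 85206141, with 14 annotated transcripts of 369 to 14910 bases, and a value per gene does not separate full-length dystrophin from its short forms.

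Utrn encodes utrophin, which in mice can stand in for dystrophin when made in excess. It was at 15.0 and 15.4 FPKM in Cdk8Tg, against 10.5 and 11.3 FPKM in WT. The Cdk8Tg pair lay above the WT pair by several times the gap within a group. The means were 15.2 ± 0.274 FPKM in Cdk8Tg and 10.9 ± 0.540 FPKM in WT (SD, n = 2 per group), with a log2 change of 0.45, an SE of 0.09 and a Benjamini-Hochberg adjusted p of 0.0207 in limma. Its call was lost after median-of-ratios scaling (log2 change 0.31, adjusted p = 0.0586), with quantile normalization (adjusted p = 0.0532) and without any 1 of the 4 libraries (adjusted p = 0.0509 to 0.107). In the authors' deposited table its q was 0.248. Utrophin is also made by endothelial and other cells of the vessel wall, and the part of other cells in its rise was not tested.

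Dag1 encodes both alpha- and beta-dystroglycan. Its levels were 75.8 and 76.9 FPKM in Cdk8Tg, against 85.5 and 90.5 FPKM in WT, lower in both Cdk8Tg libraries. The log2 change was -0.20 with a 95% interval from -0.40 to -0.00 (limma, Benjamini-Hochberg adjusted p = 0.114). It was called lower with median-of-ratios scaling (log2 change -0.35, adjusted p = 0.0384 by limma with Benjamini-Hochberg) and stood at -0.01 on the equal-sum scale.

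The inner-face adaptors moved in opposite directions. Sntb1 encodes beta-1-syntrophin, a PDZ-domain adaptor that binds dystrophin, utrophin and dystrobrevin. It reached 11.6 and 11.6 FPKM in Cdk8Tg, against 5.81 and 4.80 FPKM in WT. The mean of 11.6 ± 0.0542 FPKM in Cdk8Tg was 2.19 times the WT mean of 5.30 ± 0.712 FPKM (SD, n = 2 per group). The limma estimate was a log2 change of 1.003 with an SE of 0.11 and a Benjamini-Hochberg adjusted p of 0.00674, and the call stood under all 3 other scalings (0.86 to 1.18) and without each library in turn. Sntb2 was not called, at 3.81 and 4.01 FPKM in Cdk8Tg, against 3.95 and 4.39 FPKM in WT.

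Dtna encodes alpha-dystrobrevin, which binds dystrophin and the syntrophins. It stood at 28.0 and 26.9 FPKM in Cdk8Tg, against 35.9 and 34.3 FPKM in WT, lower in both Cdk8Tg libraries. The limma estimate was a log2 change of -0.34 with an SE of 0.08 and a Benjamini-Hochberg adjusted p of 0.0341. Its adjusted p was the highest of the 5 calls, and the call was lost on the equal-sum scale (-0.15, adjusted p = 0.161), without a variance trend (adjusted p = 0.0511) and without any 1 of the 4 libraries (adjusted p = 0.0598 to 0.153). An antisense gene, Gm47898, overlaps its exons, with the same limit. As for Sgcb, the part of the cardiomyocyte markers in the fall of Dtna was not tested. The median log2 change of these markers was -0.57 on the deposited scale and -0.72 after median-of-ratios scaling. It was 0.00 with quantile normalization and -0.37 with an equal FPKM sum.

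**Figure D2:**
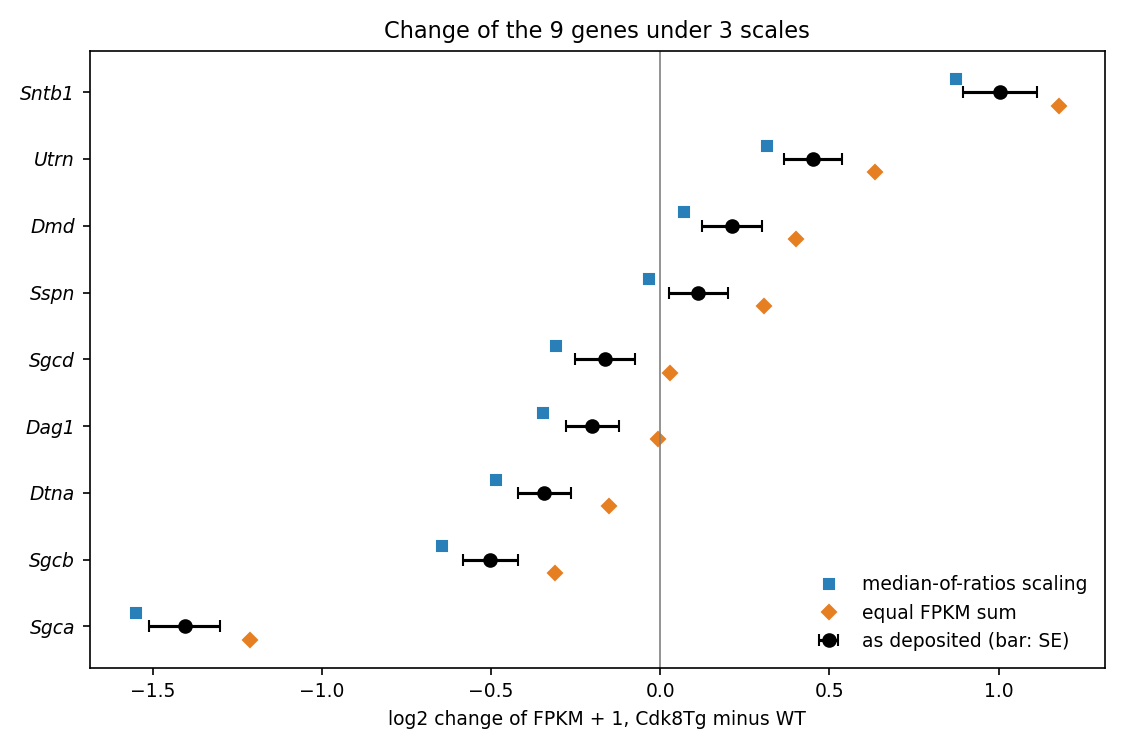
Log2 change of FPKM + 1, Cdk8Tg minus WT (horizontal axis), for each of the 9 genes, with black circles and SE bars for the deposited scale, blue squares for median-of-ratios scaling and orange diamonds for an equal FPKM sum. The scale shifts all 9 values together, and Sspn and Sgcd change sign with it, whereas Sgca and Sgcb stay below 0 and Sntb1 and Utrn above 0 on the 3 scales shown.

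Of the 9 genes, 3 had a q under 0.05 in the authors' deposited table. Sntb1 was higher (13.2 FPKM in Cdk8Tg and 6.73 FPKM in WT, q = 0.00159), and Sgca (31.8 FPKM in Cdk8Tg and 95.5 FPKM in WT, q = 0.000864) and Sgcb (31.1 FPKM in Cdk8Tg and 49.8 FPKM in WT, q = 0.00223) were lower. Of the genes tested in the authors' deposited table, 5.53% had such a q and were higher and 8.43% were lower. The authors' deposited table gave q = 0.0884 for Dtna, 0.217 for Dag1, 0.289 for Sgcd, 0.895 for Dmd and 0.935 for Sspn. Its FPKM are on another scale than those of the libraries. Over 11268 genes they were a median of 1.14 times the library mean in Cdk8Tg and 1.27 times in WT. Log2 changes taken from that table are therefore shifted downwards.

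Ratios between genes of the same library do not depend on the scaling between libraries. Relative to Dmd, Sgca was at 1.30 and 1.01 in Cdk8Tg, against 3.74 and 3.49 in WT. Sgcb relative to Dmd was 1.13 and 1.12 in Cdk8Tg, set against 1.93 and 1.84 in WT. The ratio of Utrn to Dmd was 0.647 and 0.612 in Cdk8Tg, set against 0.521 and 0.525 in WT, and that of Sntb1 to Dmd 0.4999 and 0.458 in Cdk8Tg, set against 0.288 and 0.224 in WT. Of the 8 genes set against Dmd, only Sspn had overlapping groups, 3.92 and 3.35 in Cdk8Tg, set against 4.18 and 3.65 in WT. Without such a division 49.2% of all tested rows separated upwards and 21.1% downwards. The share of all tested rows that separate when set against Dmd was not computed, so the count is a description only. Within the sarcoglycan unit the ratio of Sgca to Sgcd was 0.844 and 0.794 in Cdk8Tg, set against 1.96 and 1.98 in WT. Set against Actn2, the cardiomyocyte alpha-actinin gene, which was not called, Sgca was 0.0513 and 0.0465 in Cdk8Tg, set against 0.126 and 0.121 in WT. Set against Tnnt2, the cardiac troponin T gene, which was called lower, Sgca was 0.00571 and 0.00523 in Cdk8Tg, set against 0.0099 and 0.00984 in WT. The mean log2 ratio of Sgca differed between Cdk8Tg and WT by -1.34 against Actn2 and by -0.85 against Tnnt2. Division by a gene that itself fell makes the second difference smaller by construction. The log2 changes of the 7 ventricular cardiomyocyte markers ran from -0.81 to 0.24, and Sgca was not set against the others. With 2 libraries per group an exact permutation test of such a ratio cannot give a two-sided p below 0.333, so the ratios are given as values only.

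**Figure D3:**
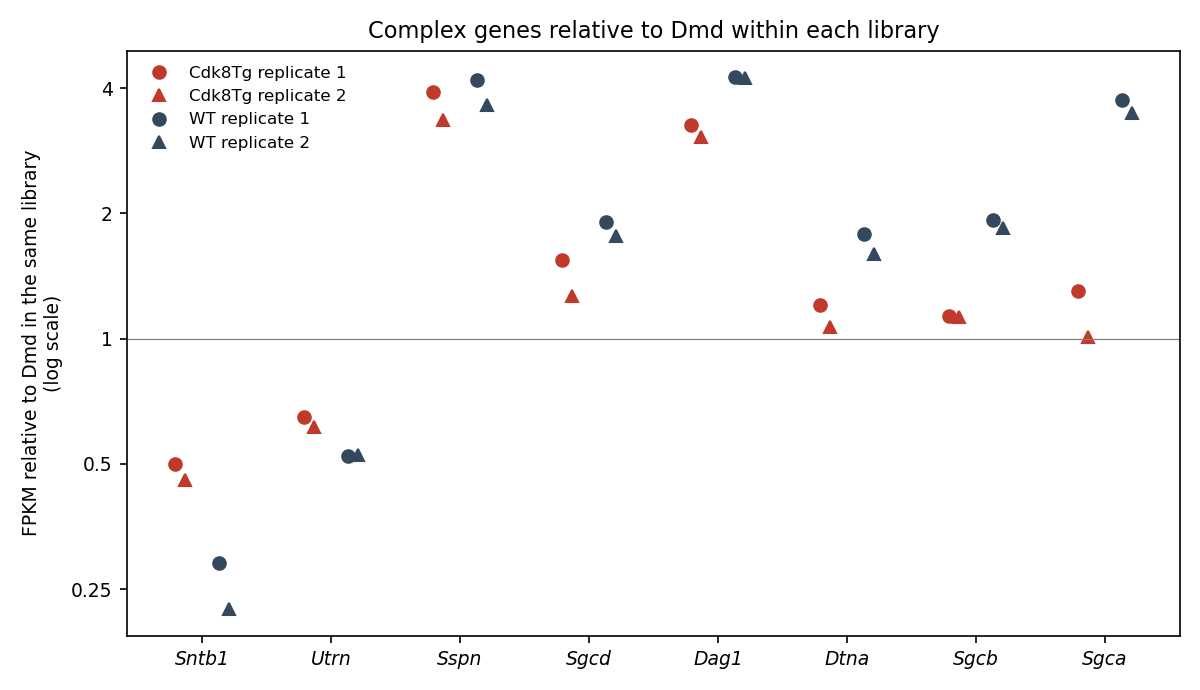
FPKM of 8 complex genes divided by that of Dmd in the same library (vertical axis, log scale), with Cdk8Tg libraries in red and to the left of WT libraries in dark for each gene. Sgca and Sgcb lie near 1 in Cdk8Tg, at 1.01 to 1.30, and at 1.84 to 3.74 in WT.

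The order of the levels also differed. In Cdk8Tg it ran Sspn, Dag1, Sgcd, Sgca, Dtna, Sgcb, Dmd, Utrn and Sntb1, and the library ranges of Sgca, Dtna and Sgcb overlapped. In WT it ran Dag1, Sspn, Sgca, Sgcb, Sgcd, Dtna, Dmd, Utrn and Sntb1, with no overlap between neighbours. The highest mean was 7.58 times the lowest in Cdk8Tg and 16.6 times in WT. Such comparisons between genes are rough, as given above. Sgca, in WT the third most abundant of the 9, was in Cdk8Tg level with Sgcb and Dtna.

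Over the 4 libraries the tested rows most like Sgca in centred log2 level were Yipf7, 1110001J03Rik and Grcc10, at Euclidean distances of 0.093, 0.10 and 0.11. Yipf7 stood at 44.2 and 36.2 FPKM in Cdk8Tg, against 101 and 108 FPKM in WT. Those most like Dmd were Gas6, Phax and Fam3c, at distances of 0.0072, 0.014 and 0.015. With 4 libraries such likeness is a description of these samples.

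Beyond the 9 genes, 73 genes of 6 lists were measured that supply, surround or back up the complex, and 64 of them were tested. Of these, 8 rose and 10 fell, where 16.9% of all tested rows rose and 7.98% fell. After median-of-ratios scaling 3 rose, namely Agrn, Bgn and Flnc, and the 10 falls were the same genes, where 7.96% of all tested rows rose and 11.7% fell. On the deposited scale the 8 rises thus lay below the background share and the 10 falls above it. After median-of-ratios scaling the falls lay nearer to the share, though still above it. The lists were chosen with earlier results of these data known, and these differences in share were not tested. The median log2 change of the 64 genes was 0.07, against 0.13 over all tested rows.

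Of the other partners of the complex, Cav3, the muscle caveolin, was at 88.9 and 72.8 FPKM in Cdk8Tg, against 104 and 91.7 FPKM in WT and was not called. Nos1, the neuronal nitric oxide synthase that syntrophin anchors in skeletal muscle, did not exceed 0.202 FPKM in Cdk8Tg or 0.031 FPKM in WT. It was not tested, like Sgcz, Sntg1, Sntg2, Dtnb and Drp2, each below 1 FPKM in all libraries.

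Enzymes that build the sugar chain by which alpha-dystroglycan holds laminin mostly did not pass the test. There were 0 rises and 2 falls among 16, where 16.9% of all tested rows rose and 7.98% fell. Their median log2 change was 0.10. B3gnt1, the glucuronyltransferase that primes the laminin-binding repeat, was at 16.3 and 15.2 FPKM in Cdk8Tg, against 21.2 and 21.4 FPKM in WT (log2 change -0.41, adjusted p = 0.0239 by limma with Benjamini-Hochberg). Large, which polymerizes the repeat, was at 15.2 and 17.1 FPKM in Cdk8Tg, against 12.1 and 16.0 FPKM in WT, with overlapping groups.

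Of 10 tested matrix partners 3 rose and 2 fell, where 16.9% of all tested rows rose and 7.98% fell. Their median log2 change was 0.07. Bgn encodes biglycan, a proteoglycan that binds dystroglycan and sarcoglycans, and stood at 210 and 311 FPKM in Cdk8Tg, against 123 and 102 FPKM in WT (log2 change 1.19, adjusted p = 0.0168 by limma with Benjamini-Hochberg). Agrn, the dystroglycan ligand agrin, was at 19.0 and 22.6 FPKM in Cdk8Tg, against 14.0 and 13.5 FPKM in WT. Lama5, the laminin alpha-5 chain, was at 3.45 and 4.35 FPKM in Cdk8Tg, against 10.6 and 16.6 FPKM in WT (log2 change -1.55, adjusted p = 0.0108 by limma with Benjamini-Hochberg). Egflam, which encodes pikachurin, a dystroglycan ligand known from the retina, changed by -0.65 in log2(FPKM + 1). Its mean FPKM in Cdk8Tg was 55.8% of that in WT. Lamb1, the laminin beta-1 chain, rose by 0.37 on the deposited scale, but median-of-ratios scaling ended that call (Benjamini-Hochberg adjusted p = 0.169 in limma). Lama2, the alpha-2 chain of muscle laminin, was not called, at 42.0 and 40.9 FPKM in Cdk8Tg, against 35.2 and 35.3 FPKM in WT. Fibroblasts make much of this matrix, and their summed markers, given above, were higher in Cdk8Tg. Their part in the rise of Bgn was not tested.

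Among 8 tested cytoskeletal linkers of the complex 2 rose and 2 fell, where 16.9% of all tested rows rose and 7.98% fell. Their median log2 change was 0.14. Flnc, filamin C, which binds sarcoglycans, was at 48.5 and 57.0 FPKM in Cdk8Tg, against 34.0 and 28.0 FPKM in WT (log2 change 0.75, adjusted p = 0.0172 by limma with Benjamini-Hochberg). Synm, the intermediate filament protein synemin, rose by 0.77 on the deposited scale, with an adjusted p of 0.0504 (limma) after median-of-ratios scaling. Its mean FPKM in Cdk8Tg was 2.21 times that in WT, a change that log2(FPKM + 1) understates at such low levels. Sync, which encodes syncoilin, a partner of alpha-dystrobrevin, was at 4.10 and 4.03 FPKM in Cdk8Tg, against 7.85 and 9.20 FPKM in WT (log2 change -0.91, adjusted p = 0.00781 by limma with Benjamini-Hochberg). Plec, the cytolinker plectin, changed by -0.43. Krt18, a keratin named after its values were seen, stood at 1.71 and 8.42 FPKM in Cdk8Tg, against 2.14 and 0.32 FPKM in WT, with overlapping groups. It was not called by limma with all 4 libraries (log2 change 1.31, adjusted p = 0.195 with Benjamini-Hochberg), was called higher by limma without Cdk8Tg replicate 1, and had q = 0.00453 in the authors' deposited table.

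The integrin and vinculin linkage, the second tie between the muscle membrane and the matrix, showed 1 rise and 0 falls among 12 tested genes with limma, 0 rises and 0 falls after median-of-ratios scaling and 5 rises on the equal-sum scale. Its median was 0.04. For comparison, 16.9% of all tested rows rose on the deposited scale, 7.96% after median-of-ratios scaling and 41.2% on the equal-sum scale. The 5 rises among 12 genes on the equal-sum scale thus lay near the background share of that scale. The 1 rise on the deposited scale lay below the 16.9% there. These shares were not compared by a test. Ilk, the integrin-linked kinase, was at 74.4 and 80.4 FPKM in Cdk8Tg, against 59.0 and 58.2 FPKM in WT (log2 change 0.39, adjusted p = 0.0257 by limma with Benjamini-Hochberg). Vcl, vinculin, and Tln1, talin, were not called, with log2 changes of 0.25 and 0.28 and limma Benjamini-Hochberg adjusted p of 0.0717 and 0.0524.

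Among 13 genes of membrane repair and caveolae 2 rose and 2 fell, where 16.9% of all tested rows rose and 7.98% fell. Their median log2 change was 0.15. Trim72 encodes MG53, which seals membrane breaks in muscle, and stood at 58.6 and 63.3 FPKM in Cdk8Tg, against 104 and 106 FPKM in WT (log2 change -0.78, adjusted p = 0.00644 by limma with Benjamini-Hochberg). Dysf, dysferlin, was at 9.99 and 9.10 FPKM in Cdk8Tg, against 15.2 and 16.3 FPKM in WT (log2 change -0.67, adjusted p = 0.011 by limma with Benjamini-Hochberg). Anxa5 and Ptrf, Ptrf being the coat protein cavin-1, rose by 0.51 and 0.29 on the deposited scale, and neither was called after median-of-ratios scaling. Without WT replicate 2, 0 of the 8 rises and 1 of the 10 falls in these lists, that of Lama5, remained called with limma, and without WT replicate 1 these were 1 and 4. Without Cdk8Tg replicate 2 they were 2 and 6. Calls over all 11888 tested rows fell off as well, to 145 higher and 142 lower without WT replicate 2, 359 and 269 without WT replicate 1, and 702 and 602 without Cdk8Tg replicate 2, against 2009 and 949 with all 4 libraries.

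**Figure D4:**
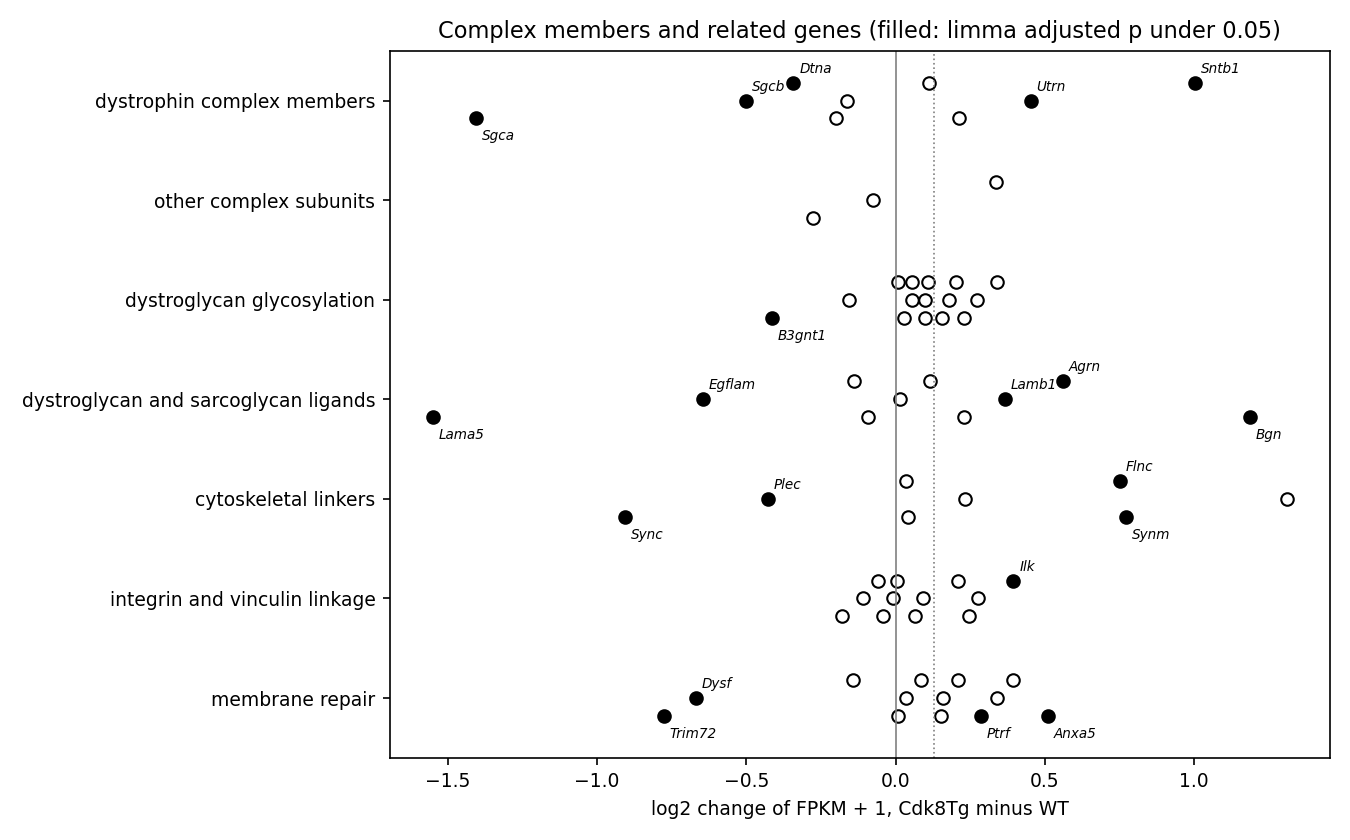
Log2 change of FPKM + 1, Cdk8Tg minus WT (horizontal axis), for the 9 complex genes and tested genes of 6 related lists, not all of which are shown (rows; the vertical offset within a row carries no meaning), with filled and named points for limma adjusted p under 0.05 and a dotted line at the median of all tested rows, 0.13. Sgca at -1.41 and Lama5 at -1.55 lie farthest to the left, and most genes of glycosylation and of the integrin linkage lie within 0.4 of 0.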

How the data were processed

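The authors deposited FPKM per gene for each library, and a second table with a Cuffdiff FPKM per group, p-value and q-value per gene. TopHat (version 1.0.0), Cufflinks, Cuffdiff and the mm10 genome are named by the authors, per the submitters' processing notes. Not given in the sources used here are the annotation, the strand setting and the scaling between libraries. Stranded libraries were made from polyadenylated RNA, per the labels' protocols.

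Groups came from the sample titles. Values of log2(FPKM + 1) from all 4 libraries were fitted with limma 3.58.1 (R 4.3.3), with a trended variance, 2 residual degrees of freedom and no covariate, on rows with a mean of at least 1 FPKM; the procedure was tested on simulated data. Members and lists were chosen with earlier results of these data known. The genes named are all 9 members, Cdk8, called genes of the 6 lists, further listed genes by smallest p up to 4 per list, and the 3 rows most like Dmd and most like the member with the largest change. Named outside that rule, after their values were seen, were Sntb2, Large, Lama2, Krt18 and the marker genes Actn2, Tnnt2, Dcn and Bmp10. So were the untested Nos1, Sgcz, Sntg1, Sntg2, Dtnb and Drp2. Of the listed genes 1, Pomk, was not matched. Some listed genes enter the counts but are not reported here by name. Coordinates are from GENCODE M21 (GRCm38), the build of the files' mm10. At most 0.369% of the 31-base stretches of any member occur in another annotated gene. Depth was estimated from FPKM below 0.1 in genes with 1 transcript over 800 bases. Alternatives were pseudocounts of 0.1 and 5, no filter, a minimum of 5 FPKM, 3 scalings, 2 variance models, a replicate block, leaving out each library and the authors' calls.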

Additional observations from a re-analysis of the deposited data

How the results depend on the processing

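Across 15 alternatives the log2 change of Sgca lay between -1.59 and -1.21 and that of Sntb1 between 0.69 and 1.18, and each lost its call only with no filter on low values, where adjusted p was 0.0748 and 0.0945 and 23847 rows entered the adjustment. Sgcb kept its call in 12 of 15, Utrn and Dtna in 7 of 15 each. The count of complex genes called higher was 2 as reported, 0 with no filter, 1 with median-of-ratios scaling, 1 with quantile normalization, 4 with equal FPKM sums, where Dmd and Sspn were added, and 1 by the authors' calls. It was 1 without any single library. The count called lower was 3 as reported, 0 with no filter and 1 to 2 without single libraries, being 1 (Sgca) without WT replicate 1 or WT replicate 2. Of the related genes, 8 were called higher as reported, 0 with no filter, 3 with median-of-ratios scaling, 20 with equal FPKM sums, 4 by the authors' calls and 0 to 11 without single libraries, and 10 were called lower as reported, 0 with no filter and 1 to 9 without single libraries. With no filter, 5268 rows had an unadjusted p under 0.05. Signs turned for Sgcd with equal FPKM sums (0.029) and for Sspn after median-of-ratios scaling (-0.034) and in the authors' deposited table (-0.042). That table is on another scale between the groups, as given above. The causes were not tested. Replicates with the same number did not deviate together (r = -0.026 over 11888 rows), so the numbers are not taken to pair the libraries. With the replicate block 2 complex genes were called higher and 3 lower, and 7 and 10 related genes, so that it changed no call of the 9 genes. When a library is left out, the lone sample of its group is taken to be as variable as the other group. Depth and 2 libraries per group limit what small changes can show.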
